A study of Homo sapiens with 12 samples.

Results

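The miR-548 family is a large group of primate microRNAs (miRNAs). Its members were taken as every entry of the deposited miRNA count table whose name starts with hsa-miR-548, which gave 80 of the 2588 mature miRNA entries. A count above 0 in at least 1 of the 12 libraries was found for 61 of the 80, and 19 had no count anywhere. The 34 members with at least 30 counts over all libraries are described singly, the other 27 detected members by their range.

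The data are small RNA sequencing of HEK293T cells, a human line from embryonic kidney with the SV40 large T antigen. The groups were cells given an siRNA against Tudor-SN and cells given a control siRNA, each with 3 libraries in run 1 and 3 libraries in run 2. The design asks which mature miRNAs depend on Tudor-SN, an endonuclease encoded by SND1, for their decay. Run 1 started from RNA enriched for short molecules, with libraries purified from polyacrylamide and read on a NextSeq, and run 2 from total RNA, with Pippin Prep size selection and a HiSeq. Run is therefore one with RNA fraction, size selection and sequencer. All libraries share the cell line and the same ligation-based library kit with 12 PCR cycles. The siRNA sequences, dose and time after transfection are not given here, and knockdown was transient. These libraries hold no SND1 mRNA, so they cannot show how far Tudor-SN was reduced. The labels do not tie replicates to separate cultures, so p-values cover the spread between libraries, which may be a technical one.

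miRNAs are short RNAs cut from hairpin precursors. The hairpin's left arm gives the 5p form and its right arm the 3p form, and the bases near the 5′ end, called the seed, pair with target mRNAs. Most miR-548 hairpins derive from MADE1, a short palindromic transposon whose inverted copies fold back on themselves, so the family lies scattered over the genome and its members resemble each other closely. Tudor-SN is known to cleave some miRNAs at CA and UA dinucleotides away from their ends.

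The sequences below belong to the members on which the results turn. All are RefSeq mature sequences on GRCh38.p14, written 5′ to 3′, with the seed (bases 2 to 8) in capitals. RefSeq matched 54 of the 80 names, including 21 of the 34 single members, and no sequence is printed for the others. The first set holds members called higher or lower in run 2, from the most to the least abundant.
miR-548k: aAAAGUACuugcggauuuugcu
miR-548o-3p: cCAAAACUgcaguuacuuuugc
miR-548f-5p: uGCAAAAGuaaucacaguuuuu
miR-548e-5p: cAAAAGCAaucgcgguuuuugc
miR-548g-3p: aAAACUGUaauuacuuuuguac
miR-548aq-3p: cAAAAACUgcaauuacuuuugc
The second set is shown because its 3 named members, from hairpins on chromosomes 4, 21 and X, have 1 and the same mature sequence, so that the reads alone cannot tell them apart.
miR-548g-5p, miR-548x-5p and miR-548aj-5p: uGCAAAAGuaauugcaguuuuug
The third set shows members with the commonest seed of the family, and miR-548l, whose seed differs from it only in the last base.
miR-548b-5p: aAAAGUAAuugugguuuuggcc
miR-548y: aAAAGUAAucacuguuuuugcc
miR-548ab: aAAAGUAAuuguggauuuugcu
miR-548l: aAAAGUAUuugcggguuuuguc

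The 54 matched sequences had 29 different seeds. AAAGUAA was the seed of 11 members, of which 10 were detected, and outside the family it was the seed of miR-559. AAAAACU was that of 7 members, miR-548aq-3p among them. GCAAAAG was that of 4, namely miR-548f-5p and the 3 identical members. miR-548k shared its seed AAAGUAC with miR-548av-5p and, outside the family, with miR-8054. The median matched member lay 3 edits (substitutions, insertions or deletions) from its nearest relative in the family, and 20 of the 54 lay within 2 edits. miR-548k lay 2 edits from its nearest relative and miR-548o-3p 1 edit. The sources used here do not give how reads that match several entries were assigned, so the split between near-identical members is uncertain throughout.

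A pair of motifs that are reverse complements of each other, AAAAGUAA and UUACUUUU, were searched on the miRNA strand. AAAAGUAA occurred in 29.6% of the matched members and in 0 of 2227 matched entries outside the family. UUACUUUU occurred in 25.9% of members and 0.0898% of the others. The median GC content was 34.1% in the family and 52.2% outside it. A CA or UA dinucleotide more than 5 bases from either end was present in 98.1% of the members, against 69.3% of the other entries. These shares describe sequence only.

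The GENCODE 29 annotation of GRCh38 places 72 miR-548 hairpins on 22 chromosomes, 40 of them inside a gene on the same strand and 36 of those genes protein-coding. MIR548K, at chr11:70283955-70284070 on the plus strand, lies in an intron of PPFIA1, a liprin that organises focal adhesions, and the mature miR-548k occupies chr11:70283986-70284007. MIR548F1, at chr10:54607874-54607957 on the minus strand, lies in an intron of PCDH15, a protocadherin of sensory hair cells. MIR548E, at chr10:110988926-110989013 on the plus strand, lies in an intron of SHOC2, a scaffold of RAS signalling. MIR548AQ, at chr3:185767847-185767904 on the minus strand, lies in an intron of IGF2BP2, an mRNA-binding protein. MIR548G, at chr4:147344629-147344717 on the minus strand, overlaps no annotated gene. miR-548o-3p has 2 loci, MIR548O on chromosome 7 and MIR548O2 on chromosome 20, the second of them inside RALGAPB.

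Library totals, meaning counts assigned to miRNAs, were 658568 to 1092713 in Tudor-SN siRNA libraries and 222452 to 270191 in control libraries of run 1, and 1710708 to 3140214 against 927727 to 1653077 in run 2. Every Tudor-SN siRNA library was deeper than every control library of its run. A count of 0 allows up to 3 counts, or 2.75 to 4.56 CPM (counts scaled to a library total of 1000000) in Tudor-SN siRNA and 11.1 to 13.5 CPM in control libraries of run 1, and 0.955 to 1.75 against 1.81 to 3.23 CPM in run 2. Intervals and floors cover counting error only. Run 2 Tudor-SN siRNA replicate 3 stood apart from its group, with chi-square per degree of freedom of 34.9 and 20.6 against its partners, where other pairs ran from 2.31 to 8.68. The HEK293T markers miR-10a-5p, miR-10b-5p, miR-196a-5p, miR-17-5p and miR-92a-3p were present in every library. Of the markers of other tissues, miR-142-3p, miR-223-3p and miR-206 were at 0 and miR-122-5p, miR-451a and miR-219a-5p had at most 2 counts over all libraries. Neural miR-124-3p had 7 counts in all, while neural miR-9-5p was present in every library at 799 to 1997 CPM. Muscle miR-1-3p had 105, 71 and 51 counts in run 1 Tudor-SN siRNA libraries against 5, 2 and 1 in controls, and muscle miR-133a-3p had 23, 11 and 16 against 0, 0 and 1 in run 2. The part of these differences in depth and markers in the results below was not tested.

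The family as a whole was rare, and far rarer in run 1 than in run 2. In run 1 it held 132, 70 and 97 counts in Tudor-SN siRNA replicates 1 to 3 against 35, 32 and 31 in the controls. In run 2 it held 2730, 2250 and 1344 counts against 967, 1715 and 1145. In run 1 this came to 0.0119% ± 0.00298 of miRNA counts with Tudor-SN siRNA and 0.0133% ± 0.00130 with control siRNA (SD, n = 3 each), and the groups overlapped. In run 2 the share was 0.0816% ± 0.00465 with Tudor-SN siRNA and 0.104% ± 0.000817 with control siRNA (SD, n = 3 each). The Tudor-SN siRNA libraries ran from 0.0786% to 0.0869% and the controls from 0.103% to 0.104%, so the run 2 groups did not overlap.

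Levels from here on are CPM after scaling by TMM, a trimmed mean that offsets differences in composition between libraries. The summed family level in run 2 was 810, 759 and 789 CPM with Tudor-SN siRNA against 1106, 1035 and 1087 CPM with control siRNA. Without miR-548k it was 476, 432 and 453 CPM against 569, 549 and 569 CPM, again with no overlap. In run 1 the family stood at 117 ± 27.3 CPM with Tudor-SN siRNA and 135 ± 14.6 CPM with control siRNA (SD, n = 3 each). miR-10a-5p, the most abundant miRNA, took 25.6% ± 1.47 of counts with Tudor-SN siRNA and 35.3% ± 0.941 with control siRNA in run 2 (SD, n = 3 each), and among counts other than miR-10a-5p the run 2 family share was 0.110% against 0.160%. A fall in the number of cells that make a miRNA and less of it per cell cannot be told apart in such bulk RNA.

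**Figure D1:**
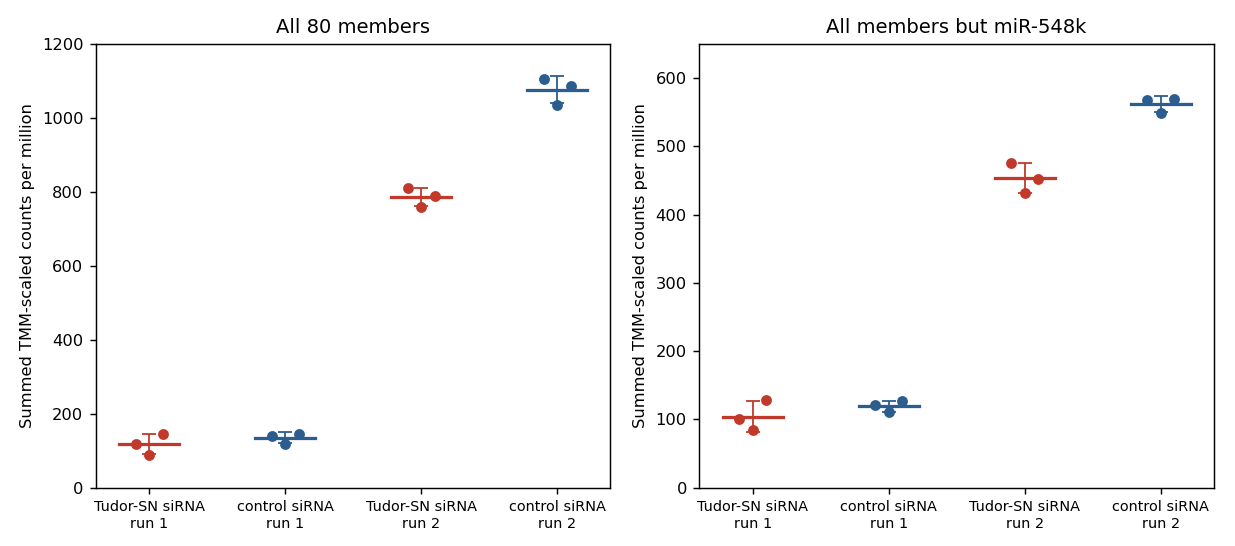
Summed level of all 80 miR-548 members (left) and of all but miR-548k (right), in TMM-scaled CPM on the y axis, by siRNA and run; points are libraries, lines with bars the mean ± SD (n = 3). In run 2 the Tudor-SN siRNA libraries lie at 759 to 810 and the control libraries at 1035 to 1106, with no overlap, while the run 1 groups overlap near 100.

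Within each run every Tudor-SN siRNA library, all of them deeper, had more members with a count than every control library. In run 1, 26, 20 and 24 members had a count in the Tudor-SN siRNA libraries against 15, 18 and 17 in the controls. Thinned to 222452 counts, the smallest library of that run, the expected numbers were 14.6, 11.6 and 16.8 against 14.2, 16 and 17 and the groups overlapped. In run 2, 50, 48 and 47 members were detected against 39, 45 and 40. At 927727 counts the expected numbers were 42.7, 39.4 and 41.8 against 39, 40.7 and 39.2, and the groups overlapped. Thinned to 222452 counts as well, the run 2 libraries were expected to show 25.5 to 28.1 members with Tudor-SN siRNA and 25.2 to 28.5 with control siRNA, all more than any run 1 library.

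**Figure D2:**
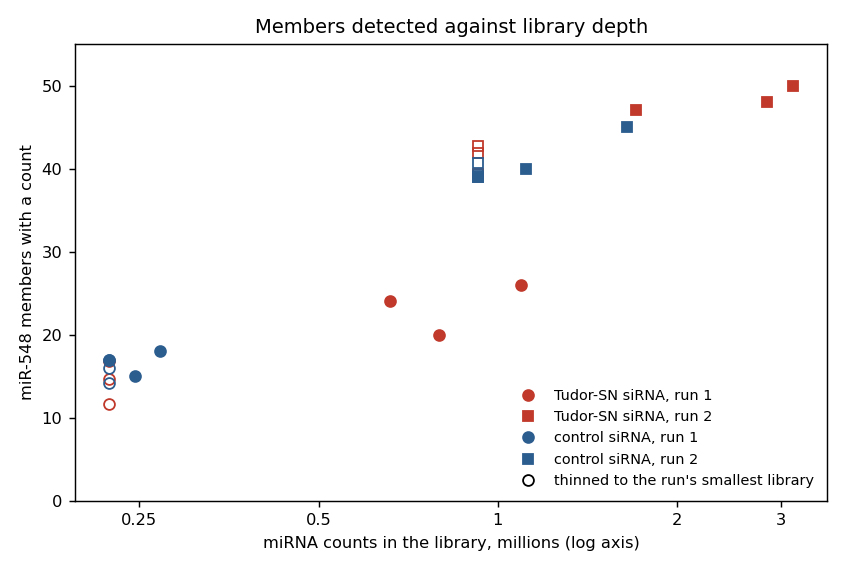
Number of miR-548 members with a count (y axis) against the library's miRNA counts (x axis, in units of 1000000, log scale); filled points are the libraries as deposited, open points the number expected after thinning to the smallest library of the run, circles run 1 and squares run 2. At equal depth the siRNA groups overlap in both runs.

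In run 2, 60 members were detected and in run 1 41, with 20 seen only in run 2 and 1 only in run 1. By arm, 25 of the 28 members named 5p, 17 of the 28 named 3p and 19 of the 24 without an arm in the name were detected, and 15, 8 and 11 of them had at least 30 counts. The 27 detected members under 30 counts had a median of 3 counts and 154 together. The lowest single member was miR-548s with 32 counts, and the highest below the limit was miR-548a-5p with 20. miR-548k alone held 44.2% of the family's counts in run 2 and 11.6% in run 1.

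In run 2 more of the tested members were called lower than higher with Tudor-SN siRNA. Of the 15 members with enough counts for the test, 6 were called lower (miR-548k, miR-548o-3p, miR-548f-5p, miR-548e-3p, miR-548e-5p and miR-548aq-3p), 1 was called higher (miR-548g-3p) and 8 did not pass an adjusted p of 0.05 in edgeR's quasi-likelihood test. Over all 383 miRNAs tested in run 2, 27.7% were lower and 23.2% higher, so the members' shares, 40% lower and 6.67% higher, stand beside a background in which 50.9% changed. The members' median log2 fold change was -0.47, against -0.02 over all tested miRNAs. These 15 had passed a filter on low counts, so neither the count nor the median speaks for all members. miR-548aq-3p passed it through the control libraries alone and so had to be lower. Its call is not read as a result, although it is counted among the 6 and in the 40%. The entry of miR-548ab needed the controls too, since 1 of its Tudor-SN siRNA libraries reached the cutoff, against 3 controls. The calls for miR-548k, miR-548f-5p and miR-548g-3p held in every alternative setting of the run 2 fit. Those for miR-548o-3p, miR-548e-3p, miR-548e-5p and miR-548aq-3p did not, and with library size alone as the scaling miR-548o-3p, miR-548e-3p and miR-548e-5p were lost.

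miR-548k, the most abundant member, stood at 333, 328 and 336 CPM in Tudor-SN siRNA libraries of run 2 against 538, 486 and 518 CPM in controls. All 3 Tudor-SN siRNA libraries lay below all 3 controls, by far more than the spread within either group. Its log2 fold change was -0.63 (SE 0.08, adjusted p = 6.2e-08, edgeR). Its share of family counts was 41.2%, 43.2% and 42.6% with Tudor-SN siRNA against 48.6%, 46.9% and 47.7% with control siRNA, with no overlap. In run 1 miR-548k was scarce, with 17.9, 5.13 and 16.4 CPM against 20.2, 7.39 and 18.7 CPM, from 20, 4 and 11 counts against 5, 2 and 4. The run 1 groups overlapped. The pooled run 1 rates had a ratio of 0.923 (95% exact interval 0.458 to 2.01), Tudor-SN siRNA over control siRNA, which also holds the size of the run 2 fall.

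miR-548f-5p carries the seed GCAAAAG and showed the larger fall of the 2 members called lower in every setting of the run 2 fit. It had 38, 36.8 and 43.4 CPM in run 2 Tudor-SN siRNA libraries, against 64.1, 79.7 and 78.8 CPM in controls. The groups lay well apart. The log2 fold change was -0.94 (SE 0.16, adjusted p = 6.4e-06, edgeR). In run 1 it had 2, 4 and 5 counts against 3, 0 and 1, too few for the test. The 3p arm of the same name had 2 counts in all run 2 Tudor-SN siRNA libraries and 0 in the controls.

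miR-548g-3p was the only tested member of the family to be called higher. Its level was 29.95, 27 and 26.4 CPM in Tudor-SN siRNA libraries of run 2 and 6.86, 13.3 and 11.4 CPM in controls, so the lowest Tudor-SN siRNA library was above the highest control. The log2 fold change was 1.33 (SE 0.25, adjusted p = 4.4e-05, edgeR). Run 1 had 12, 5 and 9 counts against 0, 0 and 1, or 10.7, 6.42 and 13.4 CPM against 0, 0 and 4.69 CPM. There too the groups did not overlap, although the control floors of 11.1 to 13.5 CPM leave the size of the difference uncertain. The pooled run 1 rates had a ratio of 7.54 (95% exact interval 1.24 to 309), Tudor-SN siRNA over control siRNA. miR-548g-3p had too few counts for the main test in run 1, and with no filter on low counts it was at 2.87 in log2 (SE 1.16, adjusted p = 0.095, edgeR).

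The other arm of that hairpin was rare. miR-548g-5p had 3.85, 1.69 and 1.17 CPM in run 2 Tudor-SN siRNA libraries against 8.01, 9.05 and 2.85 CPM in controls, and the groups overlapped. Of the reads named for either arm in run 2, the 3p form made up 91.9% (95% exact interval 87.7 to 95, 226 of both arms' counts being 3p and 20 5p) with Tudor-SN siRNA and 61.5% (48.6 to 73.3, from 40 and 25) with control siRNA. These intervals pool 3 libraries. The difference between the arms was not tested, and part of the 5p counts may belong to the 2 members of identical sequence. For MIR548B and MIR548E the intervals of the 3p share overlapped between the siRNAs. The 3p share for miR-548b was 21.2% (17.9 to 24.8) with Tudor-SN siRNA and 23.4% (18.3 to 29.2) with control siRNA, and for miR-548e it was 52.7% (47.6 to 57.8) against 52.5% (46.0 to 58.9).

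miR-548g-5p, miR-548x-5p and miR-548aj-5p fell short of the filter one by one. Because they are the same RNA, all entries with identical RefSeq sequences were also summed across the whole table. The step was chosen after their values had been seen. Entries without a RefSeq match, 13 of the single members among them, could not be checked for identity in this way. The 3 together had 12.4, 6.69 and 5.26 CPM, here without TMM scaling, in run 2 Tudor-SN siRNA libraries against 19.4, 20.6 and 21.5 in controls. All 3 Tudor-SN siRNA libraries lay below the lowest control. Their log2 fold change was -1.36 (SE 0.29, adjusted p = 0.00022, edgeR, over 384 miRNAs tested). In run 1 they had 5, 3 and 6 counts against 1, 1 and 1. They share the seed GCAAAAG with miR-548f-5p, which was called lower in run 2, and a link was not tested. The Tudor-SN siRNA library at 5.26 CPM lay under the filter's cutoff of 5.95 CPM, so the sum's entry into the test needed the controls. For that reason, and as the sum was chosen with its values known, its p-value is not read as a result.

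**Figure D3:**
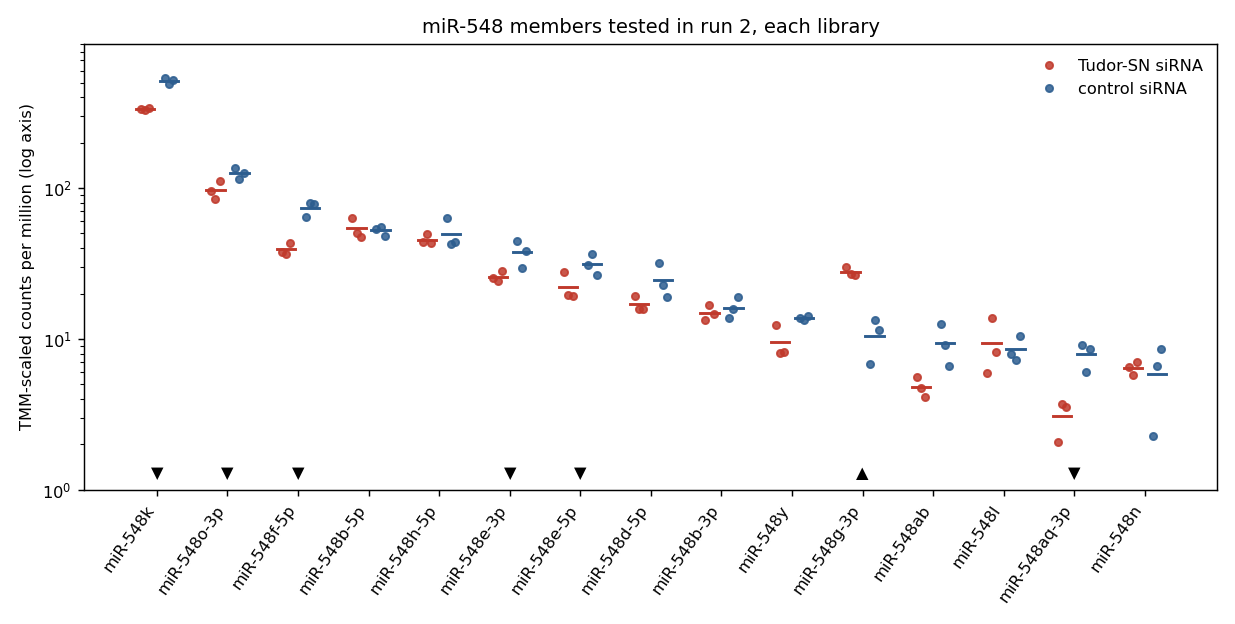
Level of each tested miR-548 member in run 2, in TMM-scaled CPM (log y axis), ordered by control level; points are libraries, short lines means of 3, and triangles mark members higher (up) or lower (down) at an adjusted p of 0.05. miR-548k stands at 328 to 336 with Tudor-SN siRNA against 486 to 538 with control siRNA, and miR-548g-3p is the one member marked higher.

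The other members called lower lost the call in some settings. miR-548o-3p, the second most abundant, had 94.9, 85 and 111 CPM in run 2 Tudor-SN siRNA libraries against 115 to 135 CPM in controls, a log2 difference of -0.37 (SE 0.13, adjusted p = 0.023, edgeR), with the groups close but not overlapping. The call was lost without Tudor-SN siRNA replicate 1 (adjusted p = 0.063, edgeR) or 2 (0.13) or without control replicate 1 (0.099) or 3 (0.058) of run 2. Its 5p partner miR-548o-5p was rare, at 4.74, 5.40 and 4.70 CPM against 4.58, 7.24 and 4.75 CPM, so that the 3p form made up 95% (93.3 to 96.4) of both arms' counts with Tudor-SN siRNA and 95.4% (93.1 to 97.2) with control siRNA. As the 3p form has 2 loci and lies 1 edit from another member, these are shares of the counts under both names and not of 1 hairpin. miR-548o-5p had no RefSeq match, so its likeness to other members could not be checked.

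Both arms of MIR548E were called lower with the same fold change. miR-548e-3p had 25.2, 24.3 and 28.2 CPM with Tudor-SN siRNA against 44.6, 29.6 and 38 CPM with control siRNA in run 2, with log2 fold change -0.50 (SE 0.20, adjusted p = 0.034, edgeR). miR-548e-5p had 27.6, 19.6 and 19.4 CPM against 30.9, 36.8 and 26.6 CPM, with log2 fold change -0.50 (SE 0.21, adjusted p = 0.046, edgeR). The 3p groups did not overlap and the 5p groups did, by 1 library. Without single libraries of run 2 the 3p call was lost when Tudor-SN siRNA replicate 1 (adjusted p = 0.078, edgeR) or 2 (0.078) or control replicate 1 (0.15) or 3 (0.094) was left out, and the 5p call when Tudor-SN siRNA replicate 2 (0.15) or 3 (0.11) or control replicate 1 (0.092) or 2 (0.32) was left out. miR-548aq-3p, the last of the 6, had 2.08, 3.71 and 3.52 CPM against 9.15, 6.04 and 8.55 CPM, from 7, 11 and 6 counts against 8, 10 and 9. Its fold change of -1.32 in log2 (SE 0.44) rests on those few counts, and it was in the test only because the controls reached the filter, so no p-value is read from it.

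Of the 8 tested members that did not pass, 5 had overlapping groups and small fold changes. On the log2 scale these were 0.05 (SE 0.16) for miR-548b-5p, -0.08 (SE 0.17) for miR-548h-5p, -0.11 (SE 0.26) for miR-548b-3p, 0.06 (SE 0.41) for miR-548n and 0.15 (SE 0.37) for miR-548l. miR-548b-5p, the most abundant of these, had 63.8, 50.6 and 47.6 CPM with Tudor-SN siRNA against 53.8, 55.5 and 48.4 CPM with control siRNA. miR-548h-5p had 43.6, 49.3 and 43.4 CPM against 62.9, 42.2 and 43.7 CPM. Neither differed beyond the spread of its libraries.

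The other 3 had larger negative values and did not pass. miR-548ab had 5.63, 4.72 and 4.11 CPM with Tudor-SN siRNA against 12.6, 9.05 and 6.65 CPM with control siRNA, at -0.89 in log2 (SE 0.38, adjusted p = 0.050, edgeR, just over the threshold, and 0.048, a pass, once identical sequences were summed). As its entry into the test needed the controls, neither p-value is read as a result. miR-548y had 12.5, 8.10 and 8.22 CPM against 13.7, 13.3 and 14.2 CPM, at -0.47 (SE 0.30, adjusted p = 0.20, edgeR). For both, no Tudor-SN siRNA library reached a control library. miR-548d-5p had 19.3, 15.9 and 15.9 CPM against 32, 22.9 and 19 CPM with overlap, at -0.49 (SE 0.23, adjusted p = 0.085, edgeR). Counting by libraries alone, 7 of the 15 tested members were lower without overlap and 1 higher, or 46.7% and 6.67%, beside 31.1% and 27.9% of all tested miRNAs. The 7 include miR-548aq-3p and miR-548ab, whose entry needed the controls, so these shares are not read as a result about the family.

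**Figure D4:**
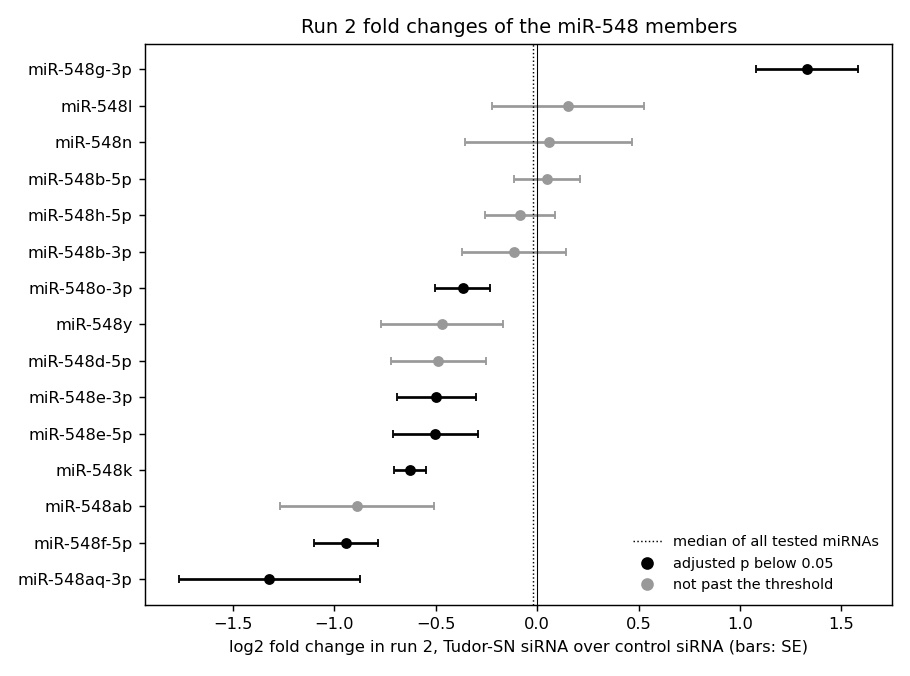
Log2 fold change in run 2, Tudor-SN siRNA over control siRNA, for the 15 tested miR-548 members; bars are standard errors, black points passed an adjusted p of 0.05, grey points did not, and the dotted line is the median of all 383 tested miRNAs. miR-548g-3p stands alone at 1.33 while the 6 members called lower run from -0.37 to -1.32, the last being miR-548aq-3p, which entered the test through the controls alone.

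Of the detected members with the seed AAAGUAA, 0 passed in the main run 2 test with edgeR, where miR-548b-5p, miR-548y and miR-548ab were tested, and miR-548j-5p and miR-548w were too rare for the test. miR-548j-5p had 3.56, 5.40 and 2.35 CPM with Tudor-SN siRNA against 2.29, 4.83 and 0.95 CPM with control siRNA. miR-548w had 3.85, 2.36 and 4.11 CPM against 5.72, 3.02 and 9.5 CPM. Both pairs of groups overlapped.

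The remaining single members were below the filter in run 2 as well. Among those named 5p, miR-548c-5p had 6.82, 4.39 and 5.28 CPM in run 2 with Tudor-SN siRNA against 3.43, 5.43 and 3.80 CPM with control siRNA. miR-548am-5p had 5.34, 4.39 and 5.28 CPM against 5.72, 3.62 and 4.75 CPM. miR-548ay-5p had 5.34, 5.74 and 2.35 CPM against 0, 4.83 and 3.80 CPM. These 3 groups of values overlapped. miR-548at-5p had 4.74, 2.70 and 4.11 CPM against 5.72, 2.41 and 5.70 CPM, and miR-548az-5p 4.45, 1.35 and 3.52 CPM against 1.14, 4.83 and 1.90 CPM. They too overlapped.

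Of the 3p members below the filter, miR-548ah-3p had 5.04, 3.71 and 1.76 CPM in run 2 with Tudor-SN siRNA against 8.01, 4.83 and 6.65 CPM with control siRNA. miR-548h-3p had 1.48, 3.37 and 4.11 CPM against 1.14, 6.04 and 7.60 CPM. miR-548t-3p had 2.97, 2.02 and 0.587 CPM against 1.14, 1.21 and 0 CPM. Each pair of groups overlapped, and the last lay near the floor. Of those without an arm in the name, miR-548i had 2.97, 4.39 and 3.52 CPM against 2.29, 7.24 and 3.80 CPM, and miR-548u 2.97, 3.04 and 4.11 CPM against 0, 2.41 and 7.60 CPM. miR-548z had 1.78, 1.69 and 4.11 CPM against 1.14, 3.02 and 7.60 CPM, and miR-548aa 2.97, 4.05 and 0.587 CPM against 1.14, 1.81 and 2.85 CPM. All of these overlapped as well. miR-548s had 2.67, 0.675 and 2.35 CPM against 5.72, 3.62 and 4.75 CPM without overlap, from 9, 2 and 4 counts against 5, 6 and 5.

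A lower filter, with a minimum count of 3 and a minimum total of 10, admitted 34 members among 567 miRNAs to the run 2 test. It called miR-548g-5p at -1.36 (adjusted p = 0.049, edgeR) and miR-548aj-5p at -1.30 (adjusted p = 0.030, edgeR) beside miR-548k, miR-548f-5p, miR-548aq-3p and miR-548g-3p. miR-548x-5p, the third of the identical members, was at -1.07 (adjusted p = 0.088, edgeR). miR-548s was at -1.15 (adjusted p = 0.15, edgeR). At this filter miR-548g-5p, miR-548x-5p and miR-548s needed the control libraries to enter the test, so their p-values are not read as results. The share called over all 567 miRNAs is not given here, so the number of members called is not read as a result about the family.

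In run 1 no member had enough counts for the main test, so the run gives no call on the family. Over the 224 miRNAs that were tested there, 21% rose and 22.8% fell with Tudor-SN siRNA. With the lower filter 6 members among 319 miRNAs were tested (miR-548k, miR-548l, miR-548e-3p, miR-548y, miR-548b-5p and miR-548o-3p) and 0 passed in edgeR. With no filter 41 members among 785 miRNAs were tested and 0 passed. The shares passing over all miRNAs at these filters are not given here, so these numbers are not read as a result about the family. Of the 34 single members, the interval of the pooled run 1 ratio held 1 for 32, lay above 1 for miR-548g-3p and lay below 1 for miR-548l. The 34 intervals pool 3 libraries per group, cover counting error only and are not adjusted for their number. No share over all miRNAs stands beside them, so the tally is not read as a result about the family. miR-548e-3p had 12.5, 12.8 and 14.9 CPM with Tudor-SN siRNA against 4.03, 0 and 18.7 CPM with control siRNA. miR-548l, the only single member whose pooled run 1 interval lay below 1, had 3.57, 1.28 and 7.45 CPM against 8.06, 11.1 and 18.7 CPM, from 10 counts against 9. Its ratio was 0.322 (95% exact interval 0.118 to 0.896), Tudor-SN siRNA over control siRNA. In run 2 the same miRNA was at 5.93, 13.8 and 8.22 CPM against 8.01, 7.24 and 10.4 CPM.

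A fit over all 12 libraries, with the siRNA and the run as factors, tested 12 members of 378 miRNAs. It called miR-548g-3p higher at 1.54 (SE 0.28, adjusted p = 1.6e-05, edgeR) and 2 members lower, miR-548k at -0.47 (SE 0.14, adjusted p = 0.0045, edgeR) and miR-548f-5p at -0.78 (SE 0.20, adjusted p = 0.0014, edgeR). Over all 378, 26.7% were higher and 22.2% lower, and the members' shares were 8.33% and 16.7%. These calls draw nearly all their counts from run 2. In that fit miR-548k lost its call without run 2 Tudor-SN siRNA replicate 1 (-0.31, adjusted p = 0.16, edgeR), 2 (-0.31, 0.15) or 3 (-0.25, 0.23) or without run 2 control replicate 3 (-0.28, 0.20). miR-548f-5p lost its call without Tudor-SN siRNA replicate 1 (-0.58, adjusted p = 0.065, edgeR) or 2 (-0.57, 0.056) or control replicate 3 (-0.55, 0.071) of run 2. The remaining 9 members did not pass. They ran from -0.43 for miR-548y to 0.12 for miR-548b-5p.

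Whether the siRNA effect differed between the runs was tested by the interaction of siRNA and run. Of the 12 members tested, 0 passed in edgeR and 0 in DESeq2, and 1 had an unadjusted p below 0.05 in edgeR, miR-548l at 1.83 (SE 0.86, adjusted p = 0.16, run 2 effect minus run 1 effect). Over all 378 miRNAs, 5.29% were higher and 3.17% lower. miR-548e-5p, counted among the 12, had no count in run 1, so the counts could not estimate its interaction. The standard errors of the other 11 were 0.50 or more on the log2 scale, so a difference had to be well above 0.50 to pass. For miR-548k the estimate was -0.43 (SE 0.50, adjusted p = 0.65, edgeR) and for miR-548g-3p it was -1.43 (SE 1.29, adjusted p = 0.52, edgeR).

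The authors' deposited table gave an adjusted p-value for 5 members in run 1 and 18 in run 2. By those values 0 members passed in run 1, and in run 2 the authors' deposited table had 1 member higher and 2 lower. The share of all miRNAs passing by the authors' values is not given here, so these numbers are not read as a result about the family. The authors listed miR-548g-3p at a log2 fold change of 1.35 (adjusted p = 0.00038), miR-548f-5p at -0.84 (adjusted p = 0.00013) and miR-548k at -0.54 (adjusted p = 8.2e-09). Those are the 3 members called in every setting of the run 2 fit here, and they come from the same counts.

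The larger contrast within the family was between the runs, which was looked at after the counts had been seen. In control libraries miR-548k had 1821 of 3696373 counts in run 2 against 11 of 738802 in run 1, or 492.6 against 14.9 CPM without TMM scaling, a ratio of 33.1 (95% exact interval 18.4 to 66.4). The 3 control libraries of run 2 stood at 486 to 538 CPM and those of run 1 at 7.39 to 20.2 CPM. The edgeR fit over the 6 control libraries gave a log2 difference of 4.55 (SE 0.25), run 2 over run 1, given as a description with no p-value, since miR-548k entered the test through run 2. Over the 302 miRNAs tested, 44.4% were higher in run 2 and 35.8% lower, so most miRNAs differed between the runs. All 8 members tested were higher, but they entered the test through run 2, so neither their number nor their calls say anything of the family.

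The size of the run difference varied greatly between members. miR-548o-3p had a control ratio of 17.6 (7.48 to 54.4), run 2 over run 1, and miR-548f-5p one of 13.5 (5.23 to 50.1). miR-548b-5p had 4.22 (2.18 to 9.37) and miR-548e-3p 5.12 (2.14 to 16). miR-548e-5p had 116 counts in run 2 controls and 0 in run 1 controls, so it was at least 7.73-fold higher, taking 3 counts over the group as the floor. Its partner arm miR-548e-3p was seen in run 1, with 34 counts with Tudor-SN siRNA and 5 with control siRNA, while miR-548e-5p had 0 in all 6 run 1 libraries. Other members did not differ or went the other way. miR-548y had a ratio of 0.979 (0.490 to 2.17), miR-548l 0.666 (0.308 to 1.6) and miR-548t-3p 0.120 (0.0186 to 0.616), the last from 3 counts against 5. Of the 34 single members, 12 had an interval above 1, 1 had an interval below 1 and 21 had an interval that held 1. These 34 were chosen by counts over both runs, and run 2 held 10151 of the family's 10548 counts. The choice thus favoured members high in run 2, and the tally is not read as a result about the family.

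**Figure D5:**
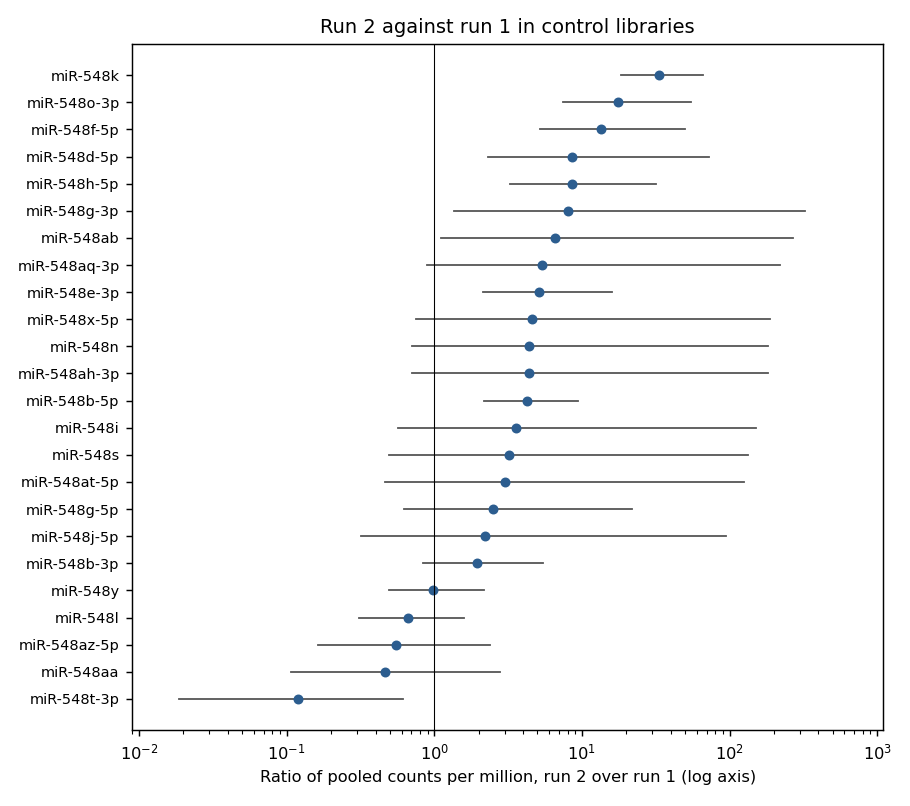
Ratio of pooled control CPM, run 2 over run 1 (log x axis), for the 24 single members with a count in the run 1 controls; lines are 95% exact intervals for counting error, and the vertical line marks equality. miR-548k lies at 33.1 and miR-548o-3p at 17.6, miR-548y near 1 and miR-548t-3p at 0.120.

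In the Tudor-SN siRNA libraries, which were deeper, miR-548k had 2668 counts in run 2 and 35 in run 1, and miR-548e-5p 184 against 0. The order of members by abundance thus differed between the runs. In run 2 miR-548k with 4489 and miR-548o-3p with 1201 were followed by miR-548b-5p with 636, then by miR-548f-5p and by miR-548h-5p with 538. In run 1 the highest members over all libraries were miR-548k with 46 counts and miR-548e-3p with 39, followed by miR-548b-5p with 33, miR-548y with 30 and miR-548g-3p with 27. RNA fraction, size selection and sequencer changed together between the runs and cannot be told apart.

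Related miRNAs were read from lists chosen with these data known. Of 5 other entries that MADE1 copies gave rise to, none had enough counts in either run alone, and miR-579-3p was at -0.07 (SE 0.55) on the log2 scale in the fit over both runs. Of 6 entries outside the family that share a seed with a member, such as miR-559, 0 were tested. Of 41 entries derived from other transposons, 24 were tested in run 2, where 6 were higher and 4 lower (median log2 fold change 0.06). These are 25% and 16.7%, near or below the 23.2% and 27.7% of all tested miRNAs (median -0.02). In run 1, 17 were tested and 3 were higher and 3 lower (median 0.12), or 17.6% each way, beside 21% and 22.8% of all tested miRNAs (median -0.05).

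Among those 41, miR-340-5p, from a mariner element, and miR-708-5p, from an L2 element, rose in both runs. miR-340-5p was at 0.29 (SE 0.06, adjusted p = 6.5e-05, edgeR) in run 2 and 0.44 (SE 0.13, adjusted p = 0.0024, edgeR) in run 1, and miR-708-5p at 0.85 (SE 0.18, adjusted p = 0.00024, edgeR) and 1.21 (SE 0.39, adjusted p = 0.0058, edgeR). miR-582-3p fell in both, at -0.85 (SE 0.11, adjusted p = 1e-07, edgeR) in run 2 and -0.89 (SE 0.20, adjusted p = 4.4e-05, edgeR) in run 1. The most abundant over both runs, miR-151a-5p, also from an L2 element, was at 0.51 (SE 0.06, adjusted p = 3e-08, edgeR) in run 2 and 0.13 (SE 0.10, adjusted p = 0.33, edgeR) in run 1. The other arm of that hairpin, miR-151a-3p, came second and was at 0.33 (SE 0.06, adjusted p = 4.9e-05, edgeR) in run 2 and 0.05 (SE 0.11, adjusted p = 0.74, edgeR) in run 1.

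Of 11 entries that overlap other noncoding RNA, 3 of 6 tested (50%) were lower in run 2, beside 27.7% of all tested miRNAs, and 11 of 11 (100%) in run 1 (median -2.06), beside 22.8%. miR-3960 was lower in both, at -1.07 (SE 0.19, adjusted p = 1.4e-05, edgeR) in run 2 and -3.07 (SE 0.38, adjusted p = 9.1e-14, edgeR) in run 1. So were miR-1260a, at -0.54 in run 2 and -1.84 in run 1, and miR-1248, at -1.91 and -1.86. The most abundant over both runs, miR-4454, was at -0.26 (adjusted p = 0.050, edgeR, just over the threshold) in run 2 and -1.75 (SE 0.10, adjusted p = 4.2e-60, edgeR) in run 1. miR-3651, the second, was at -0.27 (adjusted p = 0.67, edgeR) in run 2 and -1.98 (adjusted p = 1.2e-05, edgeR) in run 1. The 11 entries took 0.0965% of counts with Tudor-SN siRNA against 0.127% with control siRNA in run 2, and 0.416% against 1.39% in run 1, and their part in the family's values was not tested.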

How the data were processed

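Small RNA counts of HEK293T cells were analysed for 2 siRNAs in 2 runs, with 3 libraries each. Per the file headers, the authors deposited raw counts per mature miRNA, a DESeq-normalized signal (counts divided by 1 size factor per library), RPM, and their own adjusted p-value and log2 fold change per run. For run 2 the submitters' processing notes list cutadapt, DESeq, DESeq2 and Bowtie2, and for run 1 Bowtie2 alone. Their versions, settings, build and annotation are not given here.

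The raw counts went into edgeR 4.0.16 (R 4.3.3; quasi-likelihood F test, TMM scaling, filterByExpr with minimum count 10 and total 15), two-sided, with Benjamini-Hochberg adjustment over all tested miRNAs. Each run was fitted alone, then both with run as a factor and with the siRNA by run interaction. Alternatives were RLE, upper quartile and library size scaling, other filters, DESeq2 1.42.0, a replicate block and leaving out each library. Intervals are exact (Clopper-Pearson, or conditional binomial for ratios). The script was tested on simulated data. Members and lists were chosen with earlier results of these data known. Members with at least 30 counts were named singly; of each list, those past the threshold in both runs and the 2 most abundant. Same-numbered libraries deviated together with correlations of 0.142, 0.148 and 0.0818 in run 1 and 0.0482, 0.0408 and 0.0631 in run 2. Unlike numbers gave -0.146 to 0.0115 in run 1 and -0.129 to 0.0797 in run 2. In run 1 same numbers thus matched best, and in run 2 only for replicate 3. The labels give no pairing, so the main fits did not pair libraries.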

Additional observations from a re-analysis of the deposited data

Results flagged for a closer look

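miR-548aj-5p was set apart because its Tudor-SN siRNA libraries lay above the controls in run 1 and below them in run 2, with no overlap in either. In run 1 it had 2, 2 and 2 counts with Tudor-SN siRNA against 0, 0 and 0 with control siRNA, where the smaller control libraries had floors of 11.1 to 13.5 CPM, above the level in the Tudor-SN siRNA libraries. The run 1 values therefore give no direction, and an opposite movement is not shown. In run 2 it had 12, 8 and 4 counts against 6, 9 and 13, or 3.56, 2.70 and 2.35 CPM against 6.86, 5.43 and 12.3 CPM, and its pooled rate was 0.412 times that of the controls (95% exact interval 0.229 to 0.737). The difference between the runs was not tested. Summed with miR-548g-5p and miR-548x-5p, which have the same sequence, the run 1 groups overlapped, at 4.58, 3.77 and 9.11 CPM (no TMM scaling) with Tudor-SN siRNA against 4.06, 3.70 and 4.5 with control siRNA.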

How the results depend on the processing

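The run 2 falls of miR-548k (-0.67 to -0.50 on the log2 scale) and miR-548f-5p (-1.03 to -0.82) and the rise of miR-548g-3p (1.15 to 1.58) kept their direction and their call in all alternatives run, including the sum of identical sequences, which was chosen after seeing the data and in which miR-548ab also passed (adjusted p = 0.048, edgeR). The entry of miR-548ab into the test needed the controls, so that pass is not read as a result. The number of members called lower in run 2, 6 as reported, was 3 with upper quartile scaling or library size alone and 2 with no filter on low counts or with DESeq2. It ran from 2 (without control replicate 1) to 6 when 1 library was left out. In the fit over both runs the number lower, 2 as reported, was 1 with no filter or the lower filter and 0 to 2 with 1 library left out.

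The interaction depended most on the processing. Its 20 higher and 12 lower miRNAs became 10 and 33 with RLE scaling or DESeq2, 25 lower with upper quartile scaling, 32 lower with TMM within each run, 13 higher with no filter and 42 and 5 with the lower filter. They ran from 7 to 64 higher and 5 to 66 lower with 1 library left out, and the members lower from 0 to 1 (miR-548e-3p, without run 1 control replicate 3). Its median over all miRNAs was 0.19, against -0.06 with RLE scaling; the cause was not tested. With a replicate block, 22 miRNAs were lower in the interaction and 9 members were called in run 2 in place of 7, with miR-548d-5p and miR-548ab added; every Tudor-SN siRNA library of run 1 correlated best with the control of its own number, in run 2 only replicate 3 did.

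Between the control runs, 207 miRNAs were higher with no filter, 1 member was then lower, and 5 to 8 members were higher with 1 library left out (5 without any 1 run 2 control). Among counts other than miR-10a-5p the family share was 0.0230% with Tudor-SN siRNA and 0.0306% with control siRNA in run 1, and 0.110% and 0.160% in run 2. By library size alone the run 2 family level was 816 CPM with Tudor-SN siRNA and 1035 CPM with control siRNA. Upper quartile scaling moved the run 1 median of all miRNAs from -0.05 to -0.24, and RLE scaling that of both runs from 0.04 to 0.13. No result changed sign while called. In run 1, where no member reached the main test, counting error left 32 of 34 pooled intervals holding 1.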
